A study of Mus musculus with 10 samples.

Results

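The 30 genes described here encode peroxins, which build the peroxisome, and enzymes and transporters, most of which act on lipids in that organelle. They were listed by symbol, with Bdh2 added, and all 30 were found among the 55385 gene identifiers of the deposited tables. RNA was sequenced from cultured mouse melanoma cells, with 5 libraries of WT31 and 5 libraries of its subline WT31_P5IV. The mice from which the line came were Tyr::NrasQ61K/°; INK4a-/-, so the Tyr promoter drives mutant Nras in the melanocyte lineage and INK4a is deleted, and both groups carry these alleles. WT31 was the parental line and had no hepatic passage. WT31_P5IV was obtained from it by 5 rounds in which cells were injected into the tail vein, recovered from liver metastases and grown again. Both groups were untreated and grown in the same medium (RPMI 1640 with 10% fetal calf serum) to sub-confluency. The comparison asks which transcripts differed after hepatic passaging. WT31_P5IV is 1 subline, and the 5 libraries of a group, labelled as biological replicates, come from the same cell line, so p-values measure the spread between these libraries, not between independent passaging series.

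Peroxisomes are single-membrane organelles without DNA, so each of their proteins is imported from the cytosol. Pex5 and Pex7 bind enzymes that carry a type 1 or a type 2 targeting signal, Pex13 and Pex14 dock them at the membrane, and a RING ubiquitin ligase and an AAA ATPase return the receptor to the cytosol. Inside, the organelle shortens very long and branched fatty acids, starts ether lipid synthesis, and produces hydrogen peroxide that catalase removes. Peroxisomes are abundant in hepatocytes.

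Libraries held 24255389 to 25750639 estimated counts. The first principal component separated the groups and held 74.5% of the variance. Replicates 2 and 3 of WT31 stood apart from replicates 4 and 5 on the second component. Melanocyte markers summed to 14400 to 15200 TPM in WT31 and 16100 to 17900 TPM in WT31_P5IV, and the 7 genes moved both ways: 3 were higher, 2 lower and 2 not called. Pmel (1.22 ± 0.055 on the log2 scale) and, chosen after its values were seen, Dct (0.80 ± 0.049) rose, and Tyrp1, chosen likewise, fell (-0.96 ± 0.039). Of the 8 hepatocyte markers, Alb had 0 counts in each WT31 library and 0 to 9 in WT31_P5IV, and the list summed to 0.641 to 1.18 and 0.823 to 1.74 TPM. The 5 macrophage and leukocyte markers summed to 1.65 to 4.47 TPM in WT31 and 6.25 to 9.84 TPM in WT31_P5IV, almost all of it from Cd68, while Ptprc, Adgre1 and Clec4f had 0 to 2 counts in every library. Acta2 and Col1a1 of the fibroblast and stellate cell list were also higher in WT31_P5IV, at no more than 48 counts in any library. The 6 endothelial markers summed to no more than 0.324 TPM. The part of these low-level markers in the results was not tested.

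In WT31_P5IV, 10 of the 18 enzyme and transporter members, catalase among them, were lower than in WT31, whereas 7 of the 12 peroxins were higher. Cat fell 1.94-fold, Phyh 2.37-fold, Bdh2 2.27-fold, Ehhadh 1.79-fold and Scp2 1.48-fold, and Abcd2 was at the detection limit. Pex16 rose 1.54-fold, Pex10 1.41-fold, Pex14 1.39-fold, Pex26 1.37-fold and Pex5 1.31-fold, and the transporter gene Abcd4 rose 1.71-fold. In bulk RNA, fewer cells that express a gene and less of its RNA per cell cannot be told apart. All 30 members passed the filter on low counts and were tested. By edgeR's quasi-likelihood test, with p-values adjusted over all 13620 genes tested and a threshold of 0.05, 11 members rose, 12 fell, and 7 were not called. With both WT31 replicates 2 and 3 left out, 7 were higher and 12 lower. The split was 7 higher and 14 lower with limma voom without scaling, 7 and 16 on log2(TPM + 0.1), and 7 and 15 on log2(TPM + 1). Of the peroxins alone, 5 were higher and 3 lower with limma voom without scaling, 5 and 4 on log2(TPM + 0.1), 5 and 3 on log2(TPM + 1), and 5 and 2 with both WT31 replicates 2 and 3 left out. All 12 members that fell, and Pex5, Pex10, Pex14, Pex16, Pex26 and Abcd4 among those that rose, kept their call in each of these fits. The groups differed widely: 68.5% of all genes tested were called, 34.6% of them as higher and 33.9% as lower (shares of all genes tested). The members were called at 76.7%, with 36.7% higher and 40.0% lower. Their median absolute log2 fold change was 0.33, against 0.30 over all genes tested. These shares lie near the background, so the values of single members and roles carry the description below.

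Among the 12 peroxins, 7 were higher, 2 lower and 3 not called, with a median log2 fold change of 0.20. Among the 18 other members, 4 were higher, 10 lower and 4 not called, with a median of -0.30. The median over all genes tested was 0.01. The peroxin median was 0.02 and that of the other members -0.45 on log2(TPM + 0.1), a scale that moved all tested genes down by 0.17 in the median. Abcd2 enters these medians at any value below the rest, and setting it at its bound left them at 0.20 and -0.30. The difference between the peroxins and the other members was not tested. Only 3 members, Phyh, Bdh2 and Abcd2, passed the filter of a 2-fold difference at an adjusted p under 0.05, which is 10.0% of members against 9.19% of all genes tested. In CPM (counts per 1000000 on scaled library sizes), 20 members (66.7%) had groups without overlap, against 54.1% of all genes tested. In 12 of these 20 WT31_P5IV was lower, and in 8 it was higher.

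**Figure D1:**
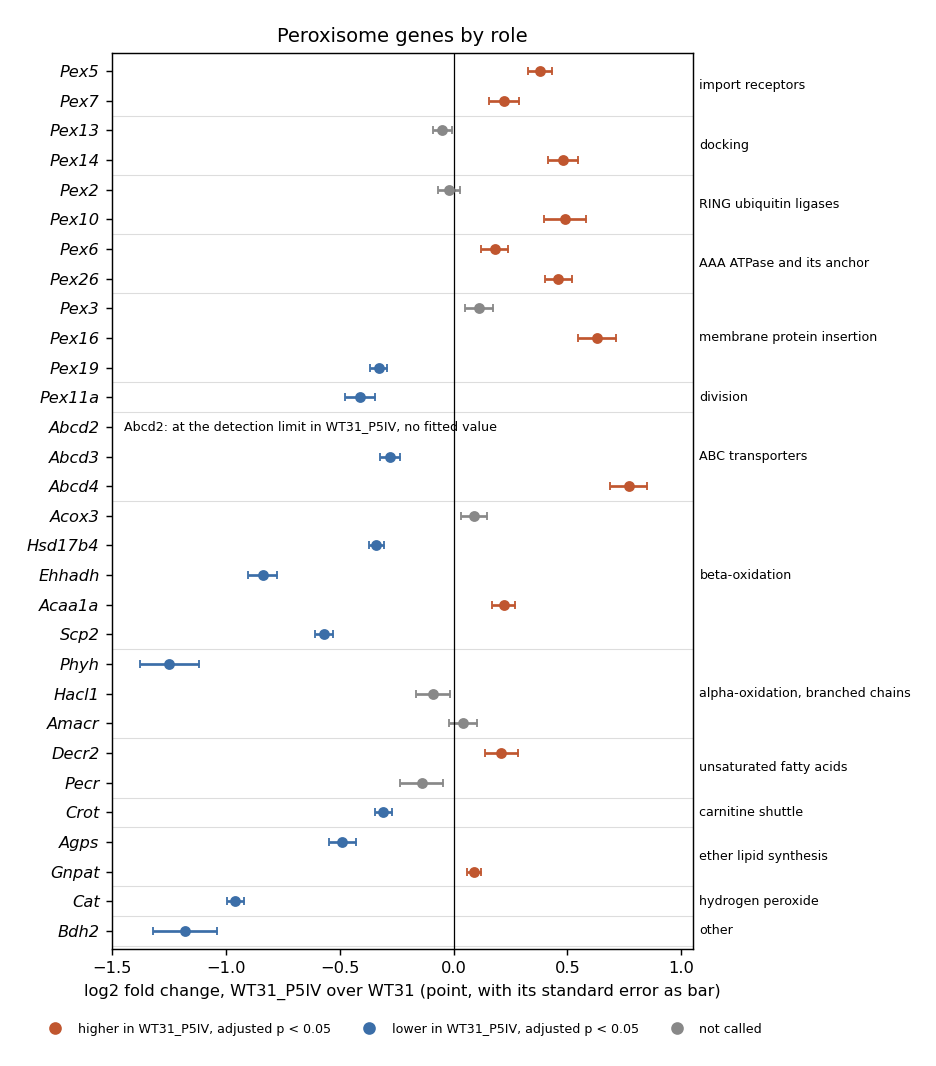
Log2 fold change of WT31_P5IV over WT31 for the 30 peroxisome genes, grouped by role. Points are edgeR estimates over 5 libraries per group, bars are standard errors, and colours give the call at an adjusted p under 0.05. Abcd2 has no point because it was at the detection limit in WT31_P5IV. In this fit the import genes at the top lie near or right of 0 (on log2(TPM + 0.1), Pex2 and Pex13 were called lower), and Cat, Bdh2, Phyh and Ehhadh lie farthest to the left.

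Of the 8 import members, 6 were higher in WT31_P5IV and none was lower. On log2(TPM + 0.1), 4 were higher and 2, Pex2 (-0.19) and Pex13 (-0.23), were called lower. On log2(TPM + 1) Pex2 alone was called lower beside 4 that were higher, and with limma voom without scaling Pex13 alone (-0.12) beside 4. The receptor genes Pex5 and Pex7 had log2 fold changes of 0.38 ± 0.052 (SE) and 0.22 ± 0.066. Pex5, which carries enzymes with a type 1 signal, rose from 35.8 ± 2.69 CPM to 46.8 ± 1.99 CPM in the subline (mean ± SD, n = 5 per group), without overlap between the groups. Pex7, which carries enzymes with a type 2 signal, was at 11.9 ± 0.821 and 13.8 ± 0.979 CPM, and the groups overlapped. Of the docking pair, Pex14 rose from 41.8 ± 4.38 to 58.2 ± 3.09 CPM, while Pex13 was at 49.4 ± 1.87 and 47.6 ± 2.14 CPM and was not called (-0.05 on the log2 scale, adjusted p = 0.260, edgeR's quasi-likelihood test). Pex14 shares 26.5% of its words of 31 bases with the antisense gene Gm17029, which itself held 4 to 15 counts per library.

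The ubiquitin ligase members also differed from one another. Pex10 rose from 8.21 ± 1.04 to 11.6 ± 1.19 CPM, and Pex2 was at 35.5 ± 1.57 and 34.99 ± 1.98 CPM (log2 fold change -0.02, adjusted p = 0.720, edgeR). Pex6, a subunit of the AAA ATPase, and Pex26, its membrane anchor, rose by 0.18 ± 0.059 and 0.46 ± 0.059. The docking pair and the ligase members thus each held a gene that rose beside a gene that was not called. The rises of Pex6 and Pex7 were not called with both WT31 replicates 2 and 3 left out, without a filter on low counts, with limma voom without scaling, or on the TPM scales, where both log2 fold changes were 0.02. That of Pex7 was also not called with a length offset. Pex5 and Pex26 lie on chromosome 6, whose 677 tested genes had a median log2 fold change of 0.28, so their own values of 0.38 and 0.46 stand against that median. Its part in their result was not tested.

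The membrane insertion genes moved in different directions. Pex16 (chr2:92374676-92381217, plus strand) encodes a membrane receptor for newly made peroxisomal membrane proteins. Its CPM was 12.6, 10.5, 9.84, 14.2 and 12 in the WT31 libraries (replicates 1 to 5) and 17.4, 18.8, 17.4, 18.1 and 19.5 in the WT31_P5IV libraries. Each WT31_P5IV library lay above each WT31 library, and the log2 fold change was 0.63 ± 0.084 (adjusted p = 1.04e-05, edgeR's quasi-likelihood test). Pex19, the cytosolic chaperone of these membrane proteins, fell from 119.8 ± 5.47 to 95.5 ± 1.72 CPM (log2 fold change -0.33 ± 0.038) and had the highest TPM of the peroxins in both groups. Pex3, the membrane dock of Pex19, was at 16.9 ± 0.856 and 18.2 ± 1.5 CPM and was not called (adjusted p = 0.132), and on the TPM scale its sign turned.

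Pex11a, which helps to elongate peroxisomes before they divide, fell from 8.44 ± 0.461 to 6.35 ± 0.322 CPM (log2 fold change -0.41 ± 0.066), without overlap. The list of other peroxins and division factors held 16 tested genes, of which 3 were higher and 7 lower, with a median log2 fold change of -0.10. Chosen after their values were seen, Dnm1l (the GTPase that cuts peroxisomes and mitochondria, -0.71 ± 0.048) and its membrane adaptor Mff (-0.28 ± 0.034) fell. Dnm1l lies on chromosome 16, whose 415 tested genes had a median of -0.42, and the part of that median in its fall was not tested. Acbd5 (-0.53 ± 0.042), which tethers peroxisomes to the endoplasmic reticulum, fell too, as did its tether partners Vapa (-0.38 ± 0.041) and Vapb (-0.33 ± 0.033).

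The enzymes of the matrix are imported through short signals, and their coding ends show which ones end in the type 1 signal that Pex5 reads. The signal is a small residue, a basic residue and a final leucine or methionine. The last 30 coding bases before the stop codon are shown 5′ to 3′ for members of the main enzyme roles (GENCODE M21 on GRCm38), with the final 3 codons in capitals.
Ehhadh: agcttggcaggaccccatagcAGCAAACTG
Scp2: cttcagcttcagccgggcaaaGCTAAGCTG
Decr2: ctagagtttgaatccttctctGCTAAGCTG
Crot: atgatacagctgatgaacaccGCTCATCTT
Gnpat: ccaataggaaaaccagccactGCAAAACTA
Cat: cacatggctgcgaagggaaaaGCTAACCTG
The first 5 of these ends fit the signal. The end of Cat departs from this pattern. Catalase is known to be imported by Pex5 through a variant of the signal. The end of Amacr, not shown, encodes the same 3 residues as that of Cat, and Amacr was not called in the main fit. In all, 7 of the 30 members (23.3%) ended in a type 1 signal, against 0.520% of 21530 protein-coding genes, and Phyh and Acaa1a held a type 2 signal within their first 50 codons, against 0.218%. The 7 were Hsd17b4, Ehhadh, Scp2, Decr2, Pecr, Crot and Gnpat. They did not move together: Ehhadh, Scp2, Hsd17b4 and Crot fell, Decr2 and Gnpat rose by 0.21 and 0.09 on the log2 scale, and Pecr was not called. Of the members with a type 2 match in that stretch, Phyh fell and Acaa1a rose by 0.22. A type 2 signal that ends beyond the first 50 codons would have been missed, so other members may carry one.

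Among the beta-oxidation members, which shorten acyl chains by 2 carbons per round, 3 of 5 fell. Ehhadh (chr16:21761287-21787807, minus strand) encodes the bifunctional enzyme of the hydration and dehydrogenation steps. Its CPM was 17.3, 17.0, 17.7, 17.3 and 17.9 in WT31 and 10.1, 9.69, 10.8, 9.69 and 8.39 in WT31_P5IV. The WT31 libraries lay within a narrow band and all above the WT31_P5IV libraries, with a log2 fold change of -0.84 ± 0.062 (adjusted p = 1.88e-08, edgeR's quasi-likelihood test). Ehhadh lies on chromosome 16, where the 415 tested genes had a median log2 fold change of -0.42, the lowest median among the chromosomes that carry members. The part of that chromosome-wide difference in the fall of Ehhadh was not tested.

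Scp2 (chr4:108043839-108144998, minus strand) encodes the thiolase for branched chains and a lipid transfer protein from 1 gene. Its CPM was 87.7, 86.0, 79.4, 84.3 and 84.4 in WT31 and 56.1, 54.9, 56.3, 60.0 and 57.3 in WT31_P5IV. The groups did not overlap, and the log2 fold change was -0.57 ± 0.038 (adjusted p = 7.50e-09, edgeR's quasi-likelihood test). Of its words of 31 bases 33.4% also occur in other genes, mainly the pseudogene Scp2-ps2, to which the deposited estimates gave 0 to 9 counts per library. Hsd17b4, the bifunctional enzyme for very long and branched chains, fell from 123.3 ± 2.86 to 97.4 ± 2.30 CPM (log2 fold change -0.34 ± 0.033).

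The other beta-oxidation members did not fall. Acaa1a, the thiolase for straight chains, rose from 38.9 ± 2.66 to 45.2 ± 2.19 CPM (log2 fold change 0.22 ± 0.051), a call that was lost on the TPM scale. It shares 23.4% of its words with other genes, mainly its paralog Acaa1b, which held 0 or 1 counts, and with Myd88 on the opposite strand. Acox3, an oxidase for branched chains, was at 18.0 ± 0.728 and 19.2 ± 1.40 CPM and was not called (log2 fold change 0.09, adjusted p = 0.178). With an offset for transcript length it was called higher (0.25). Its paralog Acox2 held 0 or 1 counts.

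Of the ABC transporters, Abcd2 and Abcd3 bring acyl groups into the organelle. Abcd2 (chr15:91145871-91191799, minus strand), which carries very long and polyunsaturated acyl-CoA, had 48, 57, 48, 33 and 34 estimated counts in WT31 and 2, 1, 3, 0 and 2 in WT31_P5IV. Every WT31_P5IV library was at or below the floor of 3 counts (0.121 to 0.129 CPM), against 1.71 ± 0.375 CPM in WT31. Abcd2 was therefore at least 13.7-fold lower in WT31_P5IV (adjusted p = 2.65e-08, edgeR's quasi-likelihood test, and p = 0.00794 in an exact two-sided permutation test of CPM, the smallest that 5 against 5 libraries can give). Within WT31, replicates 4 and 5 held the fewest counts. Abcd3, with the highest TPM of the 3 members, fell from 159.2 ± 9.87 to 130.9 ± 4.52 CPM (log2 fold change -0.28 ± 0.044).

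Abcd4 (chr12:84601464-84617413, minus strand) belongs to the family by sequence, but its protein is known to act in lysosomal cobalamin export. Its CPM was 5.88, 5.79, 4.78, 6.05 and 6.26 in WT31 and 9.21, 9.52, 11.1, 9.39 and 9.95 in WT31_P5IV. All WT31_P5IV libraries lay above all WT31 libraries, with a log2 fold change of 0.77 ± 0.081 (adjusted p = 8.50e-07, edgeR's quasi-likelihood test). The 3 members of the family thus held a loss to the detection limit, a modest fall and a rise.

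**Figure D2:**
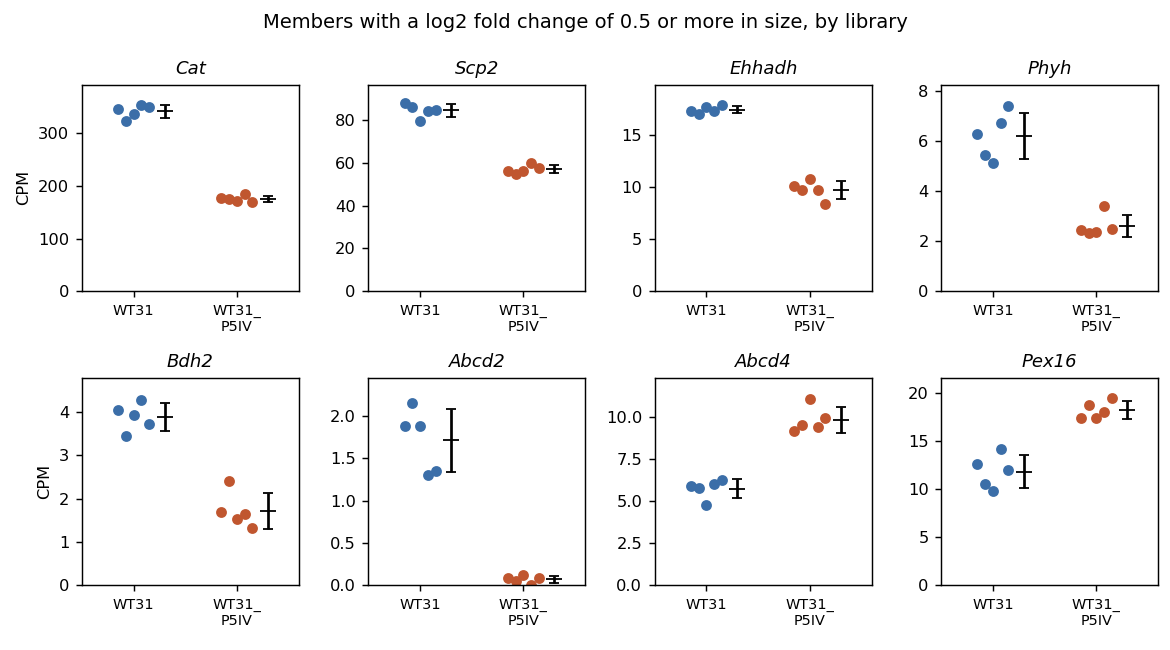
CPM in each library for the 8 members whose log2 fold change was at least 0.5 in size, with Abcd2 included. Each point is 1 library, the black marks give the mean and SD of 5 libraries, and each vertical axis starts at 0. The groups are separate in all 8 panels, with 6 genes lower and 2 higher in WT31_P5IV.

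The promoters of some members that moved down were also described, and what the lowered members share upstream was not tested. The 250 bases before the RefSeq transcription start (GRCm38.p6) of Cat, Ehhadh, Phyh and Bdh2 are given 5′ to 3′ on the strand of the gene, with CCAAT boxes on either strand in capitals.
Cat promoter, chr2:103485154-103485403, minus strand: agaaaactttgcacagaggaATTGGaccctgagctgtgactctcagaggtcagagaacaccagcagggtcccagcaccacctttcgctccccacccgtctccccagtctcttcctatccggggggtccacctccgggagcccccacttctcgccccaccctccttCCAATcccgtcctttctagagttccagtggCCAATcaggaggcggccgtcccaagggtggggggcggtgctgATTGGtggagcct
Ehhadh promoter, chr16:21787835-21788084, minus strand: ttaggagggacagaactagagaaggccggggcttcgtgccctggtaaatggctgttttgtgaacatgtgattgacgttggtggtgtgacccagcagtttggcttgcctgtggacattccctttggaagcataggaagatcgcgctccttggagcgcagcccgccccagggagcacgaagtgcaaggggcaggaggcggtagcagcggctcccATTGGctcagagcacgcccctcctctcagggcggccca
Phyh promoter, chr2:4918746-4918995, plus strand: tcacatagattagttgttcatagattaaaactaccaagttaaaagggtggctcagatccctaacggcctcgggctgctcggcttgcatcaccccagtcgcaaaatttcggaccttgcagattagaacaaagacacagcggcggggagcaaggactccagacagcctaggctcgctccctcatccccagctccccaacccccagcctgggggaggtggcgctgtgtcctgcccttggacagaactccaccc
Bdh2 promoter, chr3:135280971-135281220, plus strand: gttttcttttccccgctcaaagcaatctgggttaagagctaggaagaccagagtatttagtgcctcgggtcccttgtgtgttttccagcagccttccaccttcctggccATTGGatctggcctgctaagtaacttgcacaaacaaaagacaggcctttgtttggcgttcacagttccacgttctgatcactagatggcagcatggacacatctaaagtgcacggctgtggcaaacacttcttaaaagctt
Cat held 4 CCAAT boxes, which began 230, 85, 55 and 13 bases upstream, Ehhadh held 1 at 38 bases, Bdh2 held 1 at 141 bases, and Phyh held none. Windows of 300 bases around the start were present for 24 of the 30 members, with 28 windows in all. The letters CCAAT, on either strand, occurred in 12 of the 28 windows, which belong to 11 members, against 37.4% of all 32851 windows. The 11 included genes that fell (Cat, Ehhadh, Bdh2, Agps, Crot) and genes that rose (Pex16, Pex5, Pex7, Acaa1a). Scp2, Abcd3, Pex11a and Phyh, which also fell, had windows without these letters. Abcd2, Hsd17b4 and Pex19, which fell too, had no window. The direct repeat DR1 is AGGTCA, any base and AGGTCA again, the consensus of the element read by PPAR and RXR. Searched on both strands, it was in none of the members' windows. It occurred in only 13 of all 32851 windows (0.0396%), so its absence from 28 windows is no result about the members. Elements that depart from this consensus or lie outside the windows were not searched. The letters CACGTG occurred in the window of Gnpat (7.15% of all windows) and TGACGTCA in that of Pex13 (1.79%). These matches describe the letters in the windows and are not binding sites.

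Catalase showed the firmest difference among the members. Cat (chr2:103453849-103485160, minus strand) breaks down the hydrogen peroxide that the oxidases make. Its CPM was 346, 322, 335, 353 and 349 in WT31 and 177, 174, 171, 185 and 170 in WT31_P5IV. The highest WT31_P5IV library lay far below the lowest WT31 library, with a log2 fold change of -0.96 ± 0.038 (adjusted p = 2.70e-11, edgeR's quasi-likelihood test). Of all genes tested, 3.94% fell at least as far as Cat. Cat shares no word of 31 bases with another gene.

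Phyh (chr2:4919019-4938730, plus strand) encodes phytanoyl-CoA hydroxylase, the first enzyme of alpha-oxidation. Its CPM was 6.27, 5.45, 5.10, 6.72 and 7.37 in WT31 and 2.44, 2.32, 2.37, 3.41 and 2.48 in WT31_P5IV. The groups did not overlap, and replicate 4 of WT31_P5IV stood above the rest of its group. The log2 fold change was -1.25 ± 0.13 (adjusted p = 8.16e-07, edgeR's quasi-likelihood test), the largest fall among the members with a fitted value. The study lists Phyh and Bdh2 among genes of a Hallmark set that it chose from these same libraries, so their direction is not independent evidence. The other alpha-oxidation and branched-chain members were not called. Hacl1, the lyase that follows Phyh, was at 7.60 ± 0.428 and 7.17 ± 0.602 CPM (log2 fold change -0.09, adjusted p = 0.319), and 33.5% of its words occur in other genes. Amacr, the racemase for branched chains, was at 16.5 ± 1.12 and 17.0 ± 1.054 CPM (log2 fold change 0.04, adjusted p = 0.573), and its sign turned under several scalings. On log2(TPM + 0.1) and log2(TPM + 1) Amacr was called lower (-0.20 and -0.19).

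Bdh2 (chr3:135281221-135304426, plus strand) encodes a short-chain dehydrogenase. Its CPM was 4.04, 3.44, 3.92, 4.28 and 3.72 in WT31 and 1.68, 2.40, 1.53, 1.64 and 1.32 in WT31_P5IV. These values rest on 91 to 109 and 32 to 56 estimated counts. The groups did not overlap, and the log2 fold change was -1.18 ± 0.141 (adjusted p = 3.27e-06, edgeR's quasi-likelihood test).

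The auxiliary enzymes for unsaturated fatty acids changed little. Decr2, a dienoyl-CoA reductase, rose from 11.8 ± 0.826 to 13.6 ± 1.27 CPM (log2 fold change 0.21, adjusted p = 0.0211, edgeR), with overlapping groups. That call was lost when WT31 replicate 2, WT31_P5IV replicate 2, replicate 4 or replicate 5 was left out, with log2 fold changes between 0.15 and 0.26 over all libraries left out. It was also lost with limma voom without scaling (0.13), without a filter on low counts (0.15), with a length offset (0.18), on both TPM scales (0.02), and with both WT31 replicates 2 and 3 left out (0.15). Pecr, a trans-2-enoyl-CoA reductase, was at 6.12 ± 0.307 and 5.54 ± 0.788 CPM and was not called (log2 fold change -0.14, adjusted p = 0.186). It was called lower with limma voom without scaling (-0.22), on log2(TPM + 0.1) (-0.32) and log2(TPM + 1) (-0.29), and without WT31_P5IV replicate 1 (-0.22). Crot, which links shortened chains to carnitine for export, fell from 78.9 ± 2.99 to 63.7 ± 1.58 CPM (log2 fold change -0.31 ± 0.037), without overlap.

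Ether lipid synthesis begins with Gnpat and Agps, which act in turn in the peroxisome. Agps fell from 137.5 ± 14.3 to 97.7 ± 2.95 CPM (log2 fold change -0.49 ± 0.06), without overlap. Gnpat rose from 111.4 ± 2.47 to 118.4 ± 2.58 CPM (log2 fold change 0.09 ± 0.032, adjusted p = 0.0247, edgeR), a difference of 1.06-fold. This small rise was not called when any of 6 single libraries (WT31 replicates 2 to 5, WT31_P5IV replicates 1 and 3) was left out, with log2 fold changes of 0.07 to 0.09. It was also not called without a filter on low counts (0.03), with limma voom without scaling (0.02) or with both WT31 replicates 2 and 3 left out (0.05). With an offset for transcript length it was called at 0.27. Of the 6 other ether lipid genes, 4 were higher and 1 lower. Far1, the main reductase that supplies fatty alcohol, fell by 0.41 on the log2 scale from 47.9 ± 5.40 CPM. Its paralog Far2 rose by 1.49 ± 0.157 from 1.02 ± 0.185 to 2.87 ± 0.430 CPM and so stayed at a low level.

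**Figure D3:**
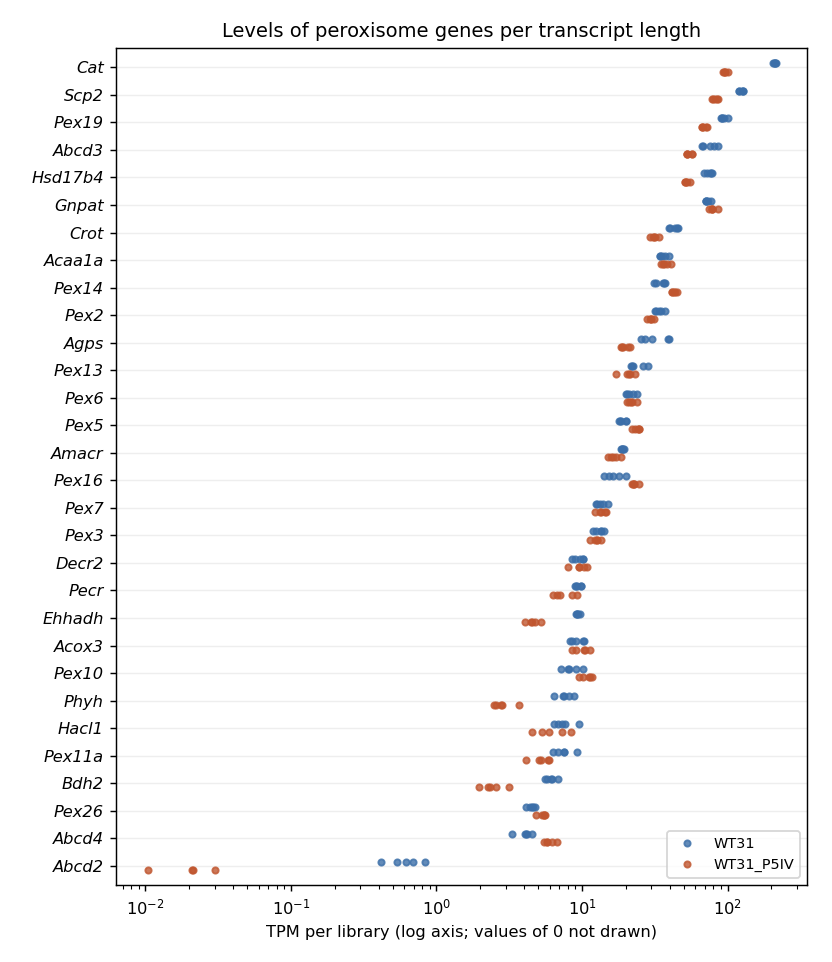
TPM of the 30 members in each library on a log axis, ordered by their mean in WT31. Each point is 1 library, blue for WT31 and orange for WT31_P5IV. Cat is highest in both groups, and Abcd2 is lowest and farthest apart between the groups.

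Levels of different genes were compared on the TPM scale, which accounts for transcript length. In WT31, Cat was highest at 210.4 ± 3.56 TPM, followed by Scp2 at 124.2 ± 3.71, Pex19 at 93.6 ± 4.40 and Abcd3 at 75.3 ± 8.38, and the first 3 steps of this order did not overlap between libraries. The ranges of Abcd3 and Hsd17b4, and those of Hsd17b4 and Gnpat, overlapped. In WT31_P5IV, Cat was again highest at 95.9 ± 3.02 TPM, followed by Scp2 at 82.3 ± 3.12 and Gnpat at 79.1 ± 4.03, and the latter pair overlapped. The 30 members together held 1041 ± 26.6 TPM in WT31 and 796 ± 9.11 TPM in WT31_P5IV. Of the difference of 245 TPM, 46.7% came from Cat, 17.1% from Scp2 and 10.1% from Pex19. The peroxins summed to 290.7 ± 11.2 and 277.8 ± 2.70 TPM, and the other members to 750.8 ± 21.01 and 518.4 ± 9.49 TPM. On the TPM scale the log2 fold changes of all tested genes lay 0.17 below those from scaled counts in the median (pseudocount 0.1), and the sums include that shift.

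Estimated count and TPM together give the mean length of the transcripts to which a gene's reads were assigned. By the ratio of count to TPM, 7 members differed between the groups (limma, adjusted p under 0.05), against 34.5% of 12326 genes. Among the 7 were Ehhadh and Cat, whose inferred transcript length was the same in every library (2981 and 2613 bases). The mean fragment length inferred for the libraries ranged from 185.7 to 202.6 bases. With each library's fragment length taken out, an alternative chosen after seeing the data, 2 members differed, against 7.14% of genes. Gnpat was at 2368 to 2562 bases in WT31 and 2091 to 2304 bases in WT31_P5IV, without overlap (log2 difference -0.19 ± 0.032, adjusted p = 0.0120, limma). Its annotated coding transcripts have 2984 and 1922 bases, and its retained-intron transcripts have 538 to 908 bases. Scp2 was at 1148 to 1249 and 1082 to 1148 bases, with ranges that met at 1148 bases (log2 difference -0.13 ± 0.025, adjusted p = 0.0201, limma). The Scp2 transcript that encodes the thiolase has 2640 bases, and the other 8, coding and non-coding, have 527 to 911 bases. Which transcripts of Gnpat and Scp2 differed was not tested. Acox3 was at 2896 to 3312 and 2559 to 3055 bases and was not called (adjusted p = 0.0927, limma).

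**Figure D4:**
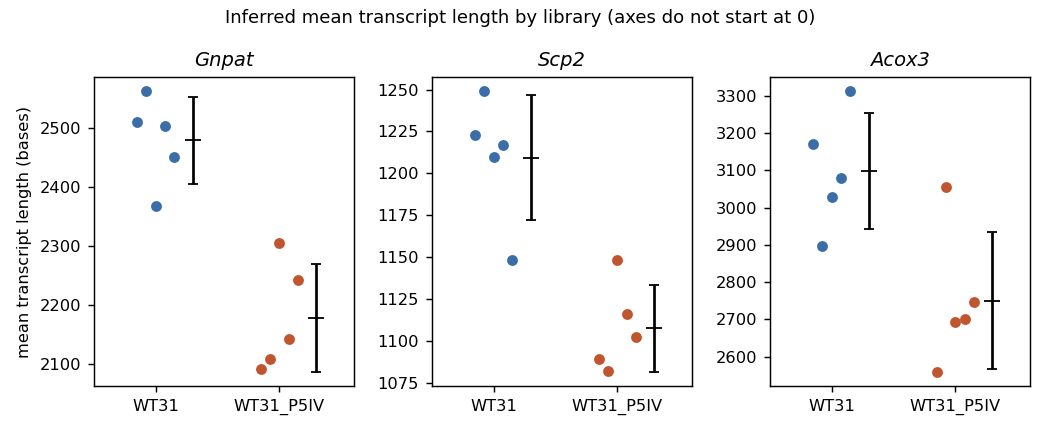
Inferred mean transcript length in bases for Gnpat, Scp2 and Acox3 in each library. Each point is 1 library, the black marks give the mean and SD of 5 libraries, and the vertical axes do not start at 0. The WT31_P5IV libraries lie lower for Gnpat without overlap, meet the WT31 range for Scp2, and overlap it for Acox3.

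The wider pathway was read from lists of other genes, each set beside the 68.5% of all genes tested that were called. Of 29 other genes of peroxisomal fatty acid oxidation, 19 were tested, 6 were higher and 8 lower, and the median log2 fold change was -0.03. Of the untested genes, Slc27a2, Eci3 and Ephx2 had 0 counts in every library. Chosen after their values were seen, Hsdl2 (-0.84 ± 0.044) and Nudt7 (-0.74 ± 0.092), which cleaves peroxisomal coenzyme A, fell, and the acyl-CoA synthetase genes Acsl3 (0.87 ± 0.054) and Acsl4 (-0.60 ± 0.055) moved in opposite directions. Among 7 tested oxidase and redox genes, 1 was higher and 3 were lower, including Idh1 (-0.56 ± 0.037, chosen after its values were seen), which supplies NADPH to the cytosol and peroxisome. Of the 20 genes of mitochondrial fatty acid oxidation, 3 were higher and 11 lower, with a median of -0.15. Cpt1b, the muscle form of the carnitine acyltransferase, rose by 1.32 ± 0.128 from 1.84 ± 0.264 to 4.61 ± 0.621 CPM, while Cpt1a was at 75.1 ± 2.77 and 74.9 ± 4.94 CPM and was not called.

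Among the nuclear receptors that control peroxisomal genes, Ppard fell from 109.4 ± 6.12 to 85.5 ± 3.297 CPM (log2 fold change -0.36 ± 0.044, adjusted p = 4.73e-06, edgeR's quasi-likelihood test). Ppara, the main receptor for peroxisomal enzymes in liver, was near 1 CPM in both groups (0.904 ± 0.169 and 1.07 ± 0.233) and was not called (adjusted p = 0.294). Pparg held 0 or 1 counts. Of the 6 tested factors on this list, 3 were higher and 2 lower. Rxrb, a partner of these receptors chosen after its values were seen, rose from 31.8 ± 2.50 to 52.8 ± 2.63 CPM (0.73 ± 0.055 on the log2 scale).

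**Figure D5:**
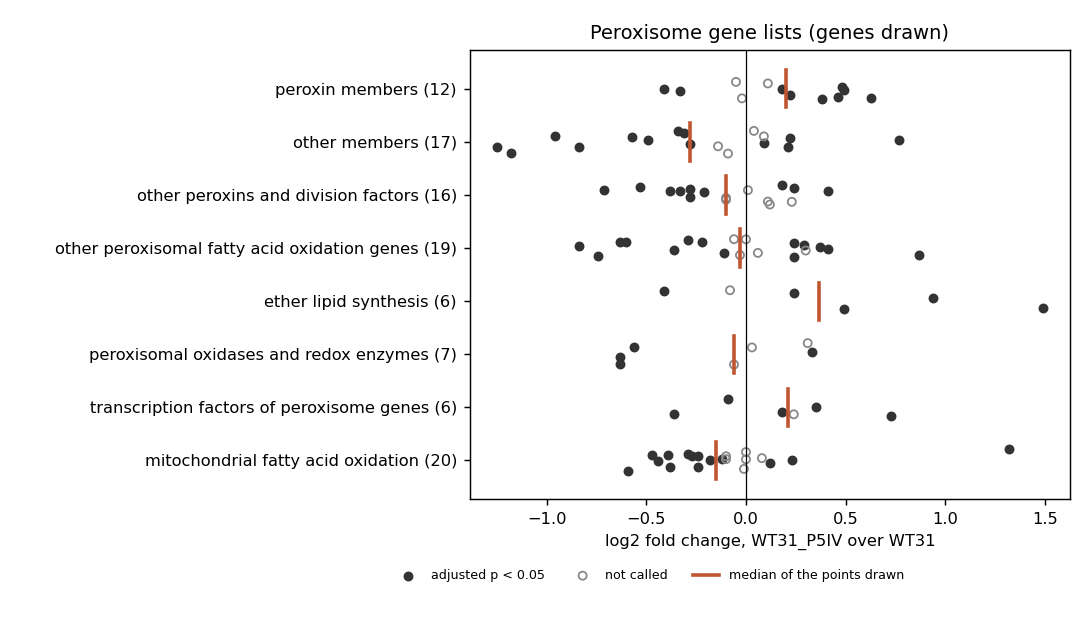
Log2 fold changes of WT31_P5IV over WT31 for the members and the other gene lists, with the number of genes drawn in parentheses. Each point is 1 tested gene, filled where the adjusted p was under 0.05, and the orange line is the median of the points drawn, so Abcd2 is left out. The peroxin members have a median of 0.20, and most lists hold genes on both sides of 0.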

How the data were processed

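RNA of 10 libraries was analysed. Per the study's methods and the submitters' processing notes, reads were trimmed with Trim Galore (0.6.4) and pseudoaligned with kallisto to GRCm38 transcripts, and the authors deposited estimated counts and TPM summed per gene. The strand setting and annotation release are not given in the sources used here. Symbols and positions came from GENCODE M21, which held 55144 of 55385 identifiers.

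Estimated counts were rounded. Low genes were removed by filterByExpr, TMM was used for scaling, and groups were compared with edgeR 4.0.16 (glmQLFit, glmQLFTest, Benjamini-Hochberg adjustment over all genes tested). CPM used scaled library sizes, and 3 counts lay at 0.121 to 0.129 CPM in WT31_P5IV. Floors cover counting error only. Transcript length was tested with limma 3.58.1. Scripts were tested on simulated data. Alternatives used DESeq2 1.42.0, limma voom, other scalings and filters, TPM and each library left out.

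The members and lists were chosen with earlier results of these data known. Values in every library are given for members at an adjusted p under 0.05 with a log2 fold change of 0.5 or more in size, and for those at the detection limit in 1 group. Other genes are named from a 2-fold difference or as paralog or receptor. Far1, Cpt1a and those so marked in the text were chosen after their values were seen, and values of some single genes are not reported here. Type 2 signals were searched with the usual pattern of 9 residues, 1 fewer than first planned, on translated GENCODE coding sequences.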

Additional observations from a re-analysis of the deposited data

Results flagged for a closer look

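Of 60 sets of 5 libraries (30 members in 2 groups), 3 held a library far from the others by Dixon's test, and chance gives about 1 in 20. All 3 were in WT31_P5IV. Pex26 was at 13.2 CPM in replicate 5, against 15.2 to 15.7 CPM in the others. Phyh was at 3.41 CPM in replicate 4, against 2.32 to 2.48 CPM, and still below each WT31 library. Gnpat was at 123 CPM in replicate 1, against 117 to 118 CPM.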

How the results depend on the processing

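All 12 members called lower, and 6 of the 11 called higher (Pex5, Pex10, Pex14, Pex16, Pex26 and Abcd4), kept direction and call under every alternative that gave a value. The count of higher members was 7 with limma voom without scaling, without a filter on low counts, on log2(TPM + 0.1), on log2(TPM + 1), and with both WT31 replicates 2 and 3 left out (an alternative added after seeing the data). Leaving out 1 library gave 9 to 11 higher and 12 to 13 lower members. On log2(TPM + 0.1), 5 members passed the 2-fold filter instead of 3. Every setting that left out 1 library gave 3. Inferred length differed for 5 to 8 members with 1 library left out, and for 2 once fragment length was taken out, where Pex14, Acox3, Hsd17b4, Ehhadh and Cat were no longer called. Of the 7 members that were not called, Hacl1 alone kept direction and call in every fit. Pex2, Pex13, Amacr and Pecr were called lower in at least 1 fit that used TPM, and Acox3 was called higher with a length offset. Sign changed for 3 of the 7. Pex2 was at 0.01 with upper-quartile scaling. Pex3 was at -0.07 on both TPM scales. Amacr was at -0.03 with limma voom without scaling, -0.02 without a filter, -0.05 with a length offset, -0.20 and -0.19 on the TPM scales (pseudocounts 0.1 and 1), -0.04 without both WT31 replicates 2 and 3, and -0.00072 to 0.07 with 1 library left out. The cause was not tested. Replicate numbers are those of the sample titles, and other labels of the WT31 samples number them differently. By the titles, replicate numbers showed no clear pairing: deviations of same-numbered libraries correlated at -0.10 to 0.18. A replicate block gave 11 higher and 12 lower members, 3 past the 2-fold filter and 5 with another inferred length. Abcd2, at 0 to 3 counts in WT31_P5IV, had no value with a minimum of 10 counts.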
